A study of Mus musculus with 10 samples.

Results

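Branched-chain amino acid breakdown was examined in the livers of lactating mice through 10 genes: Bckdha, Bckdhb, Dbt, Bckdk, Ivd, Mccc1, Mccc2, Acadsb, Hibadh and Hibch. Their members on the array were all probe sets, groups of short probes summarised to 1 value, whose annotation names exactly 1 of these symbols. That gave 17 of the 45037 probe sets tested, and all 10 genes were measured. The mice, of the QSi5 strain, formed 2 groups of 5, with 1 array per liver. Feed of the HGI group had a high glycaemic index, 51.4% (by weight) being glucose, and a gross energy density of 15.6 MJ/kg, while feed of the LGI group had a low glycaemic index, with 51.4% of a starch named Hi-Maze and 16.3 MJ/kg. Both diets ran from pregnancy to peak lactation, when livers were taken. The labels also mark every HGI mouse as in positive and every LGI mouse as in negative energy balance, so diet and energy balance cannot be told apart. Age, litter size and food intake are not given in the sources used here. The comparison asks which hepatic transcripts of this pathway differ with the kind of dietary carbohydrate. All levels and differences below are on the log2 scale of the deposited values, a difference is HGI minus LGI, and levels are compared within a probe set.

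Leucine, isoleucine and valine first lose their amino group to branched-chain aminotransferases, which in most mammals are scarce in hepatocytes and abundant in muscle. The keto acids that reach the liver are oxidized by the branched-chain keto acid dehydrogenase in mitochondria. Its E1 part is built from the alpha subunit Bckdha and the beta subunit Bckdhb, its E2 core is Dbt, and its E3 part is Dld, which it shares with other dehydrogenases. The kinase Bckdk phosphorylates Bckdha and switches the complex off, and the phosphatase Ppm1k reverses that. Past this shared step each amino acid has its own arm. Leucine carbon passes through isovaleryl-CoA dehydrogenase (Ivd) and the biotin enzyme methylcrotonyl-CoA carboxylase (Mccc1 with Mccc2), isoleucine carbon through Acadsb, and valine carbon through the hydrolase Hibch and the dehydrogenase Hibadh.

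The stretches before the starts of 4 of these genes are shown because the genes stand for the shared complex, the leucine arm, the valine arm and the kinase. RefSeq promoter entries on GRCm38.p6 were found for 9 of the 10 genes, with Dbt unmatched. Each stretch runs from 250 to 51 bases before the start used by the RefSeq promoter entry, 200 bases in all, 5′ to 3′ on the gene's strand. That start can lie inside the gene's outermost RefSeq limit, so the stretch ends 25 bases before the gene for Bckdhb, 16 for Ivd and 51 for Hibadh and Bckdk. It lies at chr9:83924887-83925086 on the plus strand for Bckdhb, chr2:118861744-118861943 on the plus strand for Ivd, chr6:52640351-52640550 on the minus strand for Hibadh and chr7:127903823-127904022 on the plus strand for Bckdk, in each case outside the gene and before its first exon. Capitals mark CCAAT boxes (CCAAT or ATTGG) and GC boxes (GGGCGG or CCGCCC).
Bckdhb: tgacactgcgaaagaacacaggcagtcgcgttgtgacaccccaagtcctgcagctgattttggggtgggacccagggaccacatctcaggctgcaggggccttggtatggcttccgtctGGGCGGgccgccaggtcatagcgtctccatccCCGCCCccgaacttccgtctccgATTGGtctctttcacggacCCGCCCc
Ivd: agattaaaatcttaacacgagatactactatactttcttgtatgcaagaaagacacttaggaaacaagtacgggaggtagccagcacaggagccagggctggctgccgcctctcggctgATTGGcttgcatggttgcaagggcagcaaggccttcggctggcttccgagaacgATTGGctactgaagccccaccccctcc
Hibadh: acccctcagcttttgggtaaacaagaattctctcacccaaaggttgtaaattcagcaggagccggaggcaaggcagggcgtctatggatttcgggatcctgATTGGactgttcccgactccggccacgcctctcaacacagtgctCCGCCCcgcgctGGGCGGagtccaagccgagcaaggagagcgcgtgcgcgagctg
Bckdk: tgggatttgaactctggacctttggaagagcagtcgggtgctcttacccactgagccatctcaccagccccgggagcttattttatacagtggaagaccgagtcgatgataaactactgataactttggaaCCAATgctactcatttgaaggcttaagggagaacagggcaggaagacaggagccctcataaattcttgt
Letters were matched on both strands. Ivd held 2 CCAAT boxes and 0 GC boxes, and Bckdhb held 1 CCAAT box and 3 GC boxes. Hibadh had 1 CCAAT box and 2 GC boxes, while Bckdk had 1 CCAAT box and 0 GC boxes. Of the 9 members with an entry, 5 held a CCAAT box and 5 a GC box, against 28.4% and 24.6% of all 32851 promoter entries in the same 200 bases. The E box CACGTG was in 0 of the 9 and in 4.34% of all entries. These are counts of letters, without evidence of binding.

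The 10 genes had lower mean levels in HGI than in LGI livers, and none of them passed the test across the array. At the brightest probe set of each gene, the one with the highest mean over the 10 livers, all 10 differences lay below 0, as did 62.1% of the 7161 named genes with a mean of at least 6. They ran from -0.68 at Ivd to -0.09 at Bckdk, with a median of -0.34, against a median of -0.04 over those named genes. Of the 17 member probe sets, 0 passed an adjusted p of 0.05 in limma (adjusted p-values from 0.104 to 0.998), where 0.0644% of all probe sets did. Before adjustment 10 of the 17 had a limma p under 0.05, all 10 lower in HGI, where 4.78% of all probe sets were lower at that level.

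Taken by gene, 8 of 10 had an unadjusted p under 0.05 and were lower in HGI, where 9.79% of the named genes with a mean of at least 6 were. At 5 genes (Bckdhb, Ivd, Acadsb, Hibadh and Hibch) the 5 HGI livers lay wholly below the 5 LGI livers, which held for 2.86% of those named genes. Bckdha and Bckdk were the exceptions to the 8, with intervals that included 0. All members but Bckdk had a mean of at least 8. Of the 2949 named genes at that level, 376 were lower in HGI at an unadjusted p under 0.05. In 118 of the 2949 the HGI livers lay wholly below the LGI livers, and 64.2% had a difference below 0. The 10 genes were read in the same livers, and HGI 1 was the lowest HGI liver at 9 of them. Their counts are therefore not separate pieces of evidence. Members were also chosen with earlier results of these data known, so their counts beside these shares are descriptions. In whole liver RNA, fewer cells of a type and less RNA per cell cannot be told apart.

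**Figure D1:**
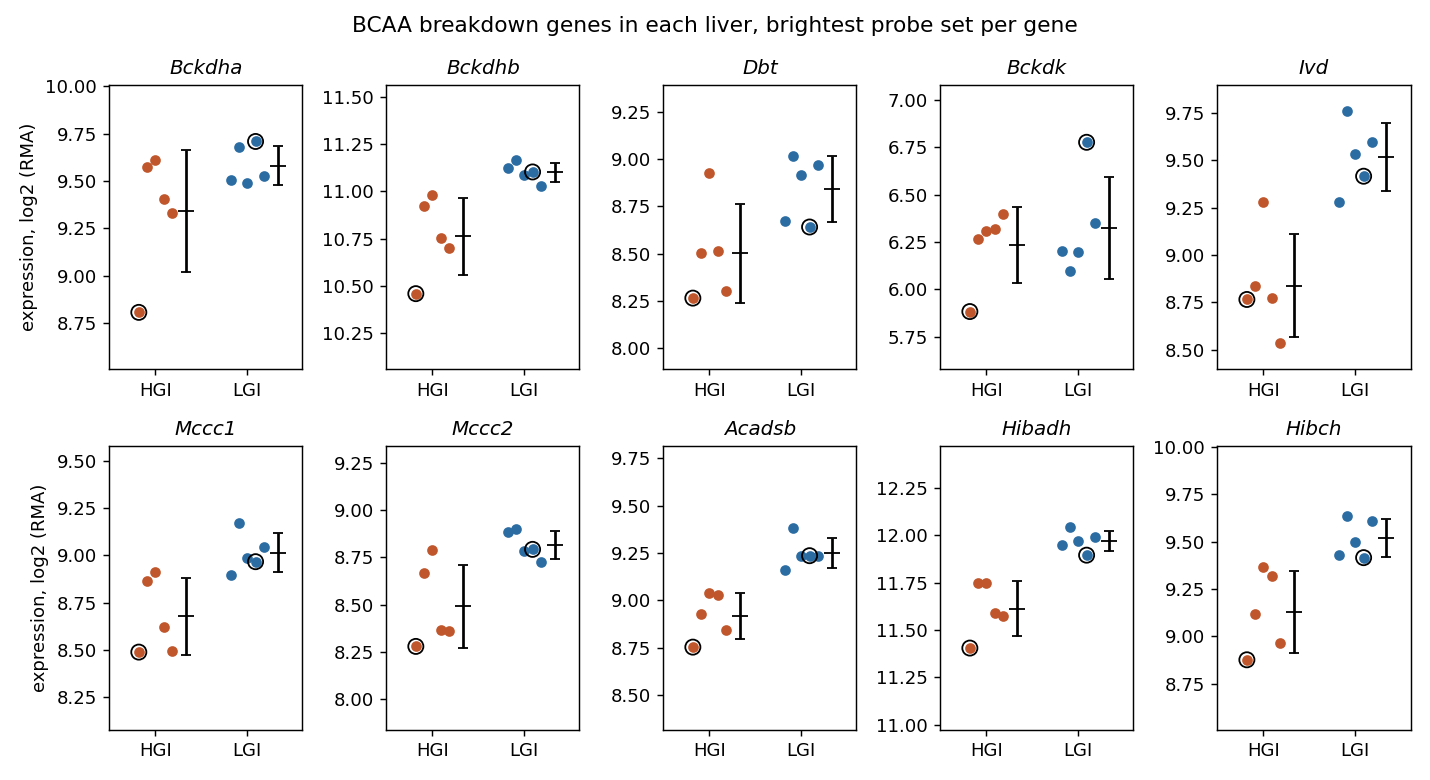
Expression (log2) of the 10 genes in each of 5 HGI and 5 LGI livers at the brightest probe set, 1 point per mouse, with the mean and SD beside each group; every panel spans the same log2 range, and circles mark HGI 1 and LGI 4. HGI points lie wholly below LGI points for Bckdhb, Ivd, Acadsb, Hibadh and Hibch, and the groups overlap for the other 5 genes.

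At the shared dehydrogenase step, Bckdhb, the E1 beta subunit, stood at 10.46, 10.92, 10.98, 10.75 and 10.70 in HGI livers 1 to 5 and at 11.12, 11.17, 11.09, 11.10 and 11.03 in LGI livers 1 to 5. The LGI livers were nearly level with each other, and each HGI liver lay below the lowest of them. Its difference was -0.34 ± 0.10 (SE, 95% interval -0.55 to -0.13, limma adjusted p = 0.378), which is a fold of 0.790, HGI over LGI. Dbt, the E2 core that passes the acyl group to coenzyme A, read 8.26, 8.50, 8.92, 8.51 and 8.30 in HGI livers, against 8.67, 9.02, 8.91, 8.64 and 8.97 in LGI livers. HGI 3 lay among the LGI livers, and the other 4 HGI livers lay below all of them. The Dbt difference was -0.34 ± 0.13 (SE, interval -0.61 to -0.07, limma adjusted p = 0.537).

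Bckdha, the E1 alpha subunit that carries the regulatory phosphorylation, had 8.81, 9.57, 9.61, 9.40 and 9.33 in HGI livers and 9.50, 9.68, 9.49, 9.71 and 9.53 in LGI livers. HGI 1 stood far below all other livers, and HGI 2 and HGI 3 lay inside the LGI range. The difference of -0.24 ± 0.13 (SE, interval -0.53 to 0.05, limma adjusted p = 0.742) was -0.10 without HGI 1, -0.14 with array weights and -0.07 without HGI 1 and LGI 4.

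Bckdk, the inhibitory kinase, had the difference nearest to 0 of the 10 genes at their brightest probe sets, and its interval included 0. Its brighter probe set gave 5.88, 6.26, 6.31, 6.32 and 6.40 in HGI livers and 6.20, 6.10, 6.20, 6.78 and 6.35 in LGI livers. HGI 1 was the lowest liver and LGI 4 the highest, and the remaining 8 lay together. The difference was -0.09 ± 0.13 (SE, interval -0.38 to 0.20, limma adjusted p = 0.932), 0.02 without LGI 4 and 0.11 without HGI 1 and LGI 4. Its dimmer probe set averaged 4.06 ± 0.11 in HGI and 4.18 ± 0.10 in LGI (SD, n = 5 each), close to the array medians of 3.91 to 3.97. The lack of a difference between diets was not shown, since any value inside the interval of the brighter probe set remains possible.

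Ivd, the flavoprotein that oxidizes isovaleryl-CoA, had the lowest adjusted p of the 10 genes. Its brighter probe set read 8.77, 8.84, 9.28, 8.77 and 8.54 in HGI livers and 9.28, 9.76, 9.53, 9.42 and 9.59 in LGI livers. The groups did not overlap, by a narrow margin, since HGI 3 (9.2797) lay just under LGI 1 (9.2825). The difference was -0.68 ± 0.13 (SE, interval -0.96 to -0.40, limma adjusted p = 0.104), a fold of 0.625, HGI over LGI. Without HGI 3 it was -0.79 and passed the threshold (limma adjusted p = 0.0297), and over all alternatives its adjusted p ran from 0.0297 to 0.292. The second Ivd probe set gave 7.33 ± 0.29 in HGI and 7.86 ± 0.23 in LGI (SD, n = 5 each) with a difference of -0.54 (interval -0.85 to -0.23, limma adjusted p = 0.308). There the groups overlapped, again through HGI 3 and LGI 1.

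Further along the leucine arm, Mccc1, the biotin-carrying subunit of the carboxylase, stood at 8.49, 8.86, 8.91, 8.62 and 8.50 in HGI livers and at 8.89, 9.17, 8.99, 8.97 and 9.05 in LGI livers. The overlap was slight, with HGI 3 just above LGI 1. The Mccc1 difference was -0.34 ± 0.10 (SE, interval -0.56 to -0.12, limma adjusted p = 0.417), and a dimmer Mccc1 probe set stood at -0.16 (interval -0.48 to 0.16). Mccc2, the partner subunit, had 8.28, 8.66, 8.79, 8.36 and 8.36 in HGI livers and 8.88, 8.90, 8.78, 8.79 and 8.72 in LGI livers. HGI 3 lay within the LGI range and the other 4 HGI livers below it. Its difference was -0.33 ± 0.10 (SE, interval -0.55 to -0.10, limma adjusted p = 0.454).

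The 3 Mccc2 probe sets did not give the same picture. The middle one had a difference of -0.25 (interval -0.61 to 0.12), and the dimmest, at 5.32 ± 0.50 in HGI and 5.28 ± 0.42 in LGI (SD, n = 5 each), had 0.04 (interval -0.47 to 0.55). The spread between mice at that probe set was wider than at the brightest, where the SD was 0.22 in HGI and 0.07 in LGI. With the mean of all 3 in place of the brightest, the Mccc2 difference was -0.18.

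Acadsb, which dehydrogenates the short branched acyl-CoA of isoleucine, was read by 1 probe set whose suffix (x_at) marks probes that may also match other transcripts. It gave 8.75, 8.93, 9.04, 9.03 and 8.84 in HGI livers and 9.16, 9.38, 9.24, 9.24 and 9.23 in LGI livers. No liver of either diet crossed into the range of the other. The difference was -0.33 ± 0.08 (SE, interval -0.51 to -0.15, limma adjusted p = 0.257). Acadsb was not alone in this, since the brightest probe sets of Hibch, Hibadh and Lias, given below, carry the suffix s_at. That suffix marks probes shared by more than 1 transcript.

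In the valine arm, Hibch, which releases free hydroxyisobutyrate from its CoA ester, read 8.88, 9.12, 9.37, 9.32 and 8.96 in HGI livers and 9.43, 9.64, 9.50, 9.42 and 9.61 in LGI livers. The groups were apart, by a small gap between HGI 3 and LGI 4. The difference was -0.39 ± 0.10 (SE, interval -0.62 to -0.16, limma adjusted p = 0.312). A dim second Hibch probe set stood at 0.01 (interval -0.44 to 0.45), with means of 5.00 in HGI and 4.99 in LGI and an SD of 0.54 in HGI. With both averaged the Hibch difference was -0.19.

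Hibadh, which oxidizes hydroxyisobutyrate to methylmalonate semialdehyde, was the brightest of the members' probe sets, with 11.41, 11.75, 11.75, 11.59 and 11.57 in HGI livers and 11.95, 12.04, 11.97, 11.90 and 11.99 in LGI livers. Here too the groups were apart. The difference was -0.36 ± 0.08 (SE, interval -0.54 to -0.18, limma adjusted p = 0.226), and the second Hibadh probe set stood at -0.30 (interval -0.55 to -0.05, limma adjusted p = 0.554).

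**Figure D2:**
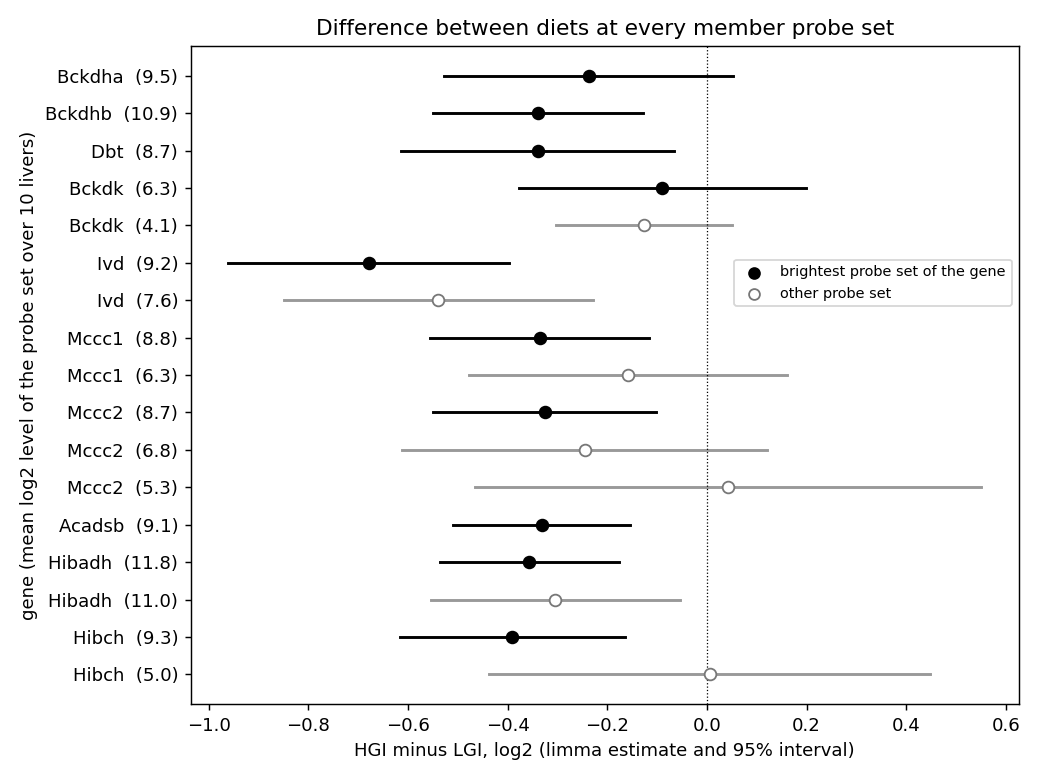
HGI minus LGI differences (log2) at all 17 member probe sets with 95% limma intervals, filled for the brightest probe set of a gene and open for the others; the mean level of each probe set is in parentheses. Intervals at 10 probe sets lie wholly below 0, and the 2 estimates above 0 belong to dim probe sets of Mccc2 and Hibch.

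HGI 1 was the lowest HGI liver at 9 of the 10 genes and HGI 3 the highest at 8, while LGI 2 was the highest LGI liver at 8. Values on HGI 1 were the least spread of all arrays (SD 2.16 over all probe sets, against 2.26 to 2.31 on the other 9), and its correlation with its own group averaged 0.989. LGI 4 had the lowest such correlation, 0.988. Without HGI 1 the median member difference was -0.28 and that of the named genes with a mean of at least 6 was 0.01. Without HGI 1 and LGI 4 together, an alternative chosen after seeing the data, the member median was -0.30, 10 of the 17 probe sets had an unadjusted p under 0.05, and 0 passed. The Gapdh 3′ minus 5′ difference, a sign of RNA integrity, was 0.64 on HGI 1, inside the range of the other arrays (0.29 to 0.99).

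**Figure D3:**
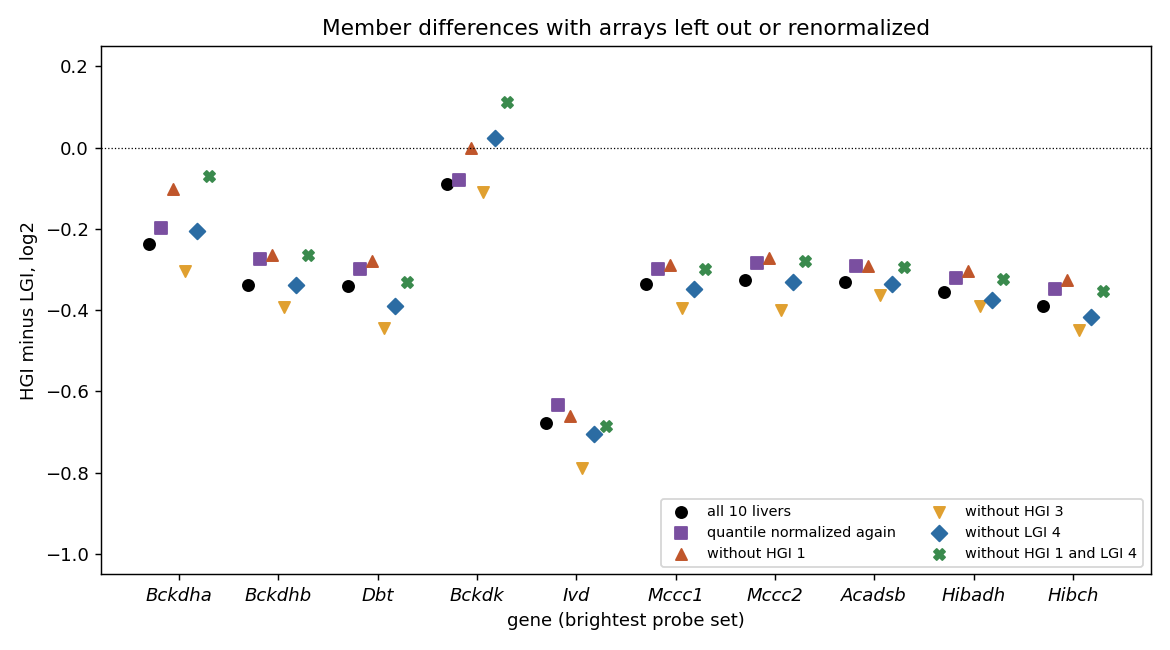
HGI minus LGI difference (log2) of each gene's brightest probe set as deposited, after quantile normalization again, and with HGI 1, HGI 3, LGI 4 or both HGI 1 and LGI 4 left out. Ivd stays between -0.79 and -0.60 in all alternatives run, Bckdha comes nearest to 0 among the subunits of the dehydrogenase, and Bckdk changes sign.

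Subunits of the same enzyme were compared between mice after each value was centred on its diet mean, so that the diet difference plays no part. Bckdha and Bckdhb varied together (Pearson r = 0.93, exact permutation within diets p = 0.00472, adjusted over 4 pairs p = 0.0189; Spearman rho = 0.79, exact permutation p = 0.0142, adjusted p = 0.0567; 10 mice). Without HGI 1 and HGI 3, the mice farthest from the median of Bckdha, r was 0.74 (exact permutation p = 0.0833) and rho 0.69. In the other 8 mice the relation therefore no longer passed. After quantile normalization again r was 0.76 with all mice (exact permutation, adjusted p = 0.133). Whether partner subunits vary together more than other gene pairs on these arrays was not tested. Mccc1 and Mccc2 had r = 0.84 (exact permutation p = 0.0301, adjusted p = 0.0603; rho = 0.83, exact permutation p = 0.0430, adjusted p = 0.0860), and r = 0.22 without HGI 3 and HGI 2, the mice farthest from the median of Mccc1. With each gene's probe sets averaged, r for this pair was 0.34 (exact permutation p = 0.391). Dbt had r = 0.55 with Bckdha (rho = 0.38) and r = 0.65 with Bckdhb (rho = 0.47), and neither passed (exact permutation p = 0.215 and 0.0978; for rho 0.306 and 0.222; for r adjusted 0.215 and 0.130, for rho adjusted 0.306 and 0.296). Without HGI 1 and HGI 3 these r were 0.12 and 0.20.

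**Figure D4:**
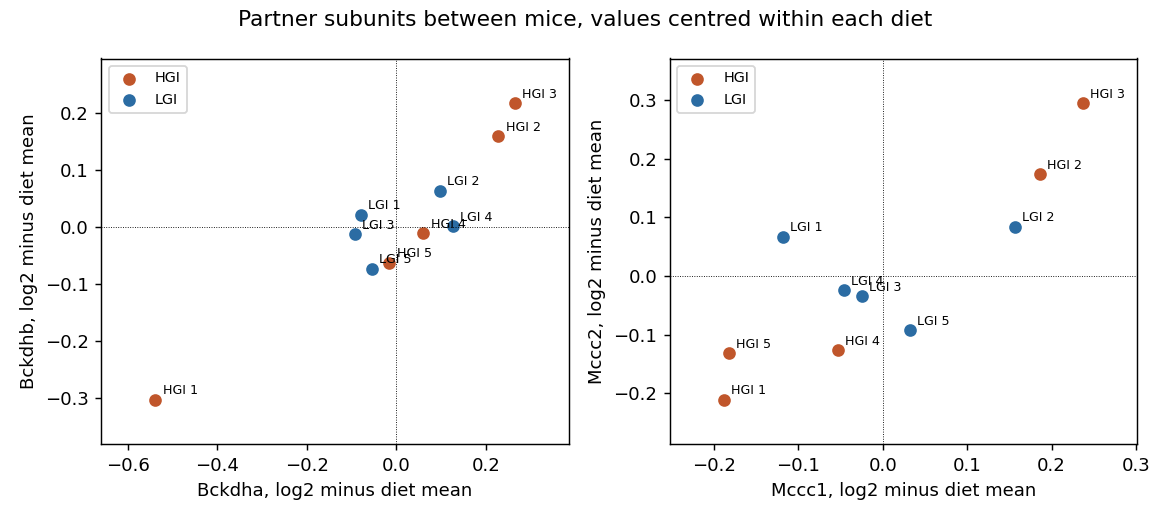
Log2 values centred within each diet for Bckdha against Bckdhb and for Mccc1 against Mccc2, 1 point per mouse. HGI 1 at the lower left and HGI 3 at the upper right carry much of the Bckdha to Bckdhb relation, where r is 0.93 with all mice and 0.74 without these 2.

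The rest of the pathway was taken from a list of 34 further genes, of which 32 had a named probe set. That list too was chosen with earlier results of these data known. Of these 32, 0 passed in limma over all probe sets. At an unadjusted p under 0.05, 9 were lower in HGI and 0 higher, where 6.23% of all named genes were lower. Among named genes with a mean of at least 6, a level that all 9 reached, the share was 9.79%. The count of 9 became 5 without HGI 1 and 5 without HGI 5, and 12 without HGI 3. A difference below 0 was found for 26 of the 32, for 58.2% of all named genes and for 62.1% of those with a mean of at least 6. The list's median difference was -0.15, and -0.07 without HGI 1.

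The phosphatase and a known regulator of the pathway were among the 9. Ppm1k, which dephosphorylates and activates the dehydrogenase, had 8.09, 8.45, 9.55, 8.41 and 8.32 in HGI livers, against 8.56, 9.40, 8.92, 9.64 and 9.38 in LGI livers. HGI 3 stood more than a full log2 unit above the other HGI livers, which all lay below the lowest LGI liver. The Ppm1k difference was -0.61 ± 0.26 (SE, interval -1.17 to -0.06, limma adjusted p = 0.615), and its second probe set stood at -0.51 (interval -1.09 to 0.06). With single arrays left out the difference at the brighter probe set ranged from -0.86 (without HGI 3) to -0.50 (without HGI 1), and its unadjusted p was under 0.05 in 3 of these 10 fits. It was -0.45 with array weights and -0.38 without HGI 1 and LGI 4, in both cases with an unadjusted p above 0.05. Klf15, a transcription factor that in mice promotes amino acid breakdown genes, averaged 9.69 ± 0.28 in HGI and 10.02 ± 0.26 in LGI (SD, n = 5 each), with a difference of -0.34 (interval -0.65 to -0.02, limma adjusted p = 0.629), and an unadjusted p under 0.05 in 4 of the 10 fits with 1 array left out.

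Kinase and phosphatase were set against each other within each liver as Bckdk minus Ppm1k. This log2 ratio averaged -2.33 ± 0.52 in HGI and -2.85 ± 0.35 in LGI (SD, n = 5 each). The difference of 0.52 did not pass (two-sided exact permutation p = 0.111, where 0.00794 is the smallest p that 5 against 5 arrays can give). Without HGI 3 it was 0.75 (exact permutation p = 0.0159), while leaving out each of the other 9 arrays gave exact permutation p-values from 0.0556 to 0.198. Levels of 2 different probe sets are not comparable, so the difference between diets is the readable quantity here.

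Dld, the shared E3 subunit, stood at -0.11 (interval -0.34 to 0.13). Of the 6 transport genes, 3 had differences below 0 and 3 above, and 1 was lower at an unadjusted p under 0.05. This was Slc3a2, the heavy chain of amino acid exchangers at the cell surface. It had 7.66, 8.22, 7.96, 7.83 and 8.01 in HGI livers and 8.48, 8.54, 8.49, 8.06 and 8.57 in LGI livers. The groups overlapped only through LGI 4, which lay among the HGI livers. Its difference was -0.49 ± 0.12 (SE, limma adjusted p = 0.253), and -0.58 without LGI 4 (limma adjusted p = 0.0797). Also among the 6, Slc7a5 stood at -0.009 (interval -0.21 to 0.19) and the dim Slc7a8 at 0.07 (interval -0.13 to 0.27). Slc25a44, the mitochondrial carrier of branched-chain amino acids and the brightest of the transport genes, stood at 0.12 (interval -0.21 to 0.44), at 0.0051 without HGI 4 and at -0.0024 without LGI 4. The aminotransferases Bcat1 and Bcat2 had means between 4.28 and 4.90 in both diets, not far above the array medians, and differences of -0.18 and -0.05.

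Downstream of the members, all 6 genes that carry propionyl-CoA to succinyl-CoA had differences below 0, and 2 had an unadjusted p under 0.05. Of the named genes with a mean of at least 6, a level all 6 reached, 62.1% lay below 0. At an unadjusted p under 0.05, 9.79% of those named genes were lower. Pcca, the biotin subunit of propionyl-CoA carboxylase, had 9.18, 9.39, 9.57, 9.38 and 9.30 in HGI livers and 9.70, 9.87, 9.74, 9.59 and 9.80 in LGI livers. Its groups were apart, with a difference of -0.38 ± 0.09 (SE, interval -0.57 to -0.18, limma adjusted p = 0.233), while a second, dim Pcca probe set stood at -0.01 and the mean of both at -0.19. Pccb, the partner subunit, stood at -0.05 (interval -0.32 to 0.22). Mmaa, which helps to load cobalamin onto the mutase, stood at -0.27 (limma adjusted p = 0.464), and Mmut, the mutase itself and the brightest of the 6, at -0.19 (interval -0.43 to 0.05) and at -0.12 without HGI 1.

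The remaining isoleucine and valine genes also lay below 0, all 6 of them, where 62.1% of named genes with a mean of at least 6 did. Of the 6, 2 had an unadjusted p under 0.05, where 9.79% of those named genes were lower. The 2 were Hsd17b10, which oxidizes the hydroxyacyl-CoA of isoleucine (-0.27, limma adjusted p = 0.550), and Agxt2, an aminotransferase of aminoisobutyrate (-0.24, limma adjusted p = 0.586). With 1 array left out, their unadjusted p was under 0.05 in 7 and 6 of 10 fits, Hsd17b10 first. Acat1, the thiolase that ends the isoleucine arm, stood at -0.01 (interval -0.24 to 0.23), and HGI 1 lay far below the other HGI livers there. Auh, the hydratase of the leucine arm, stood at -0.24 (interval -0.51 to 0.04), at -0.11 without HGI 1 and at -0.07 with its probe sets averaged. Among cofactor genes Lias, which makes the lipoyl group that Dbt carries, stood at -0.38 (limma adjusted p = 0.412) at its brightest probe set, at -0.32 at the second and at 0.19 at the dimmest. Its difference was -0.17 with all 3 averaged and -0.23 without HGI 1 and LGI 4. The other 4 cofactor genes measured lay between -0.07 and 0.05, and of all 5, 2 lay below 0 and 3 above. Etfb, a subunit of the flavoprotein that takes electrons from Ivd and Acadsb, stood at -0.27 (limma adjusted p = 0.433). The other electron acceptor genes had intervals that included 0, with Etfa at -0.15 (interval -0.40 to 0.10) and Etfdh at -0.08 (interval -0.29 to 0.13).

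**Figure D5:**
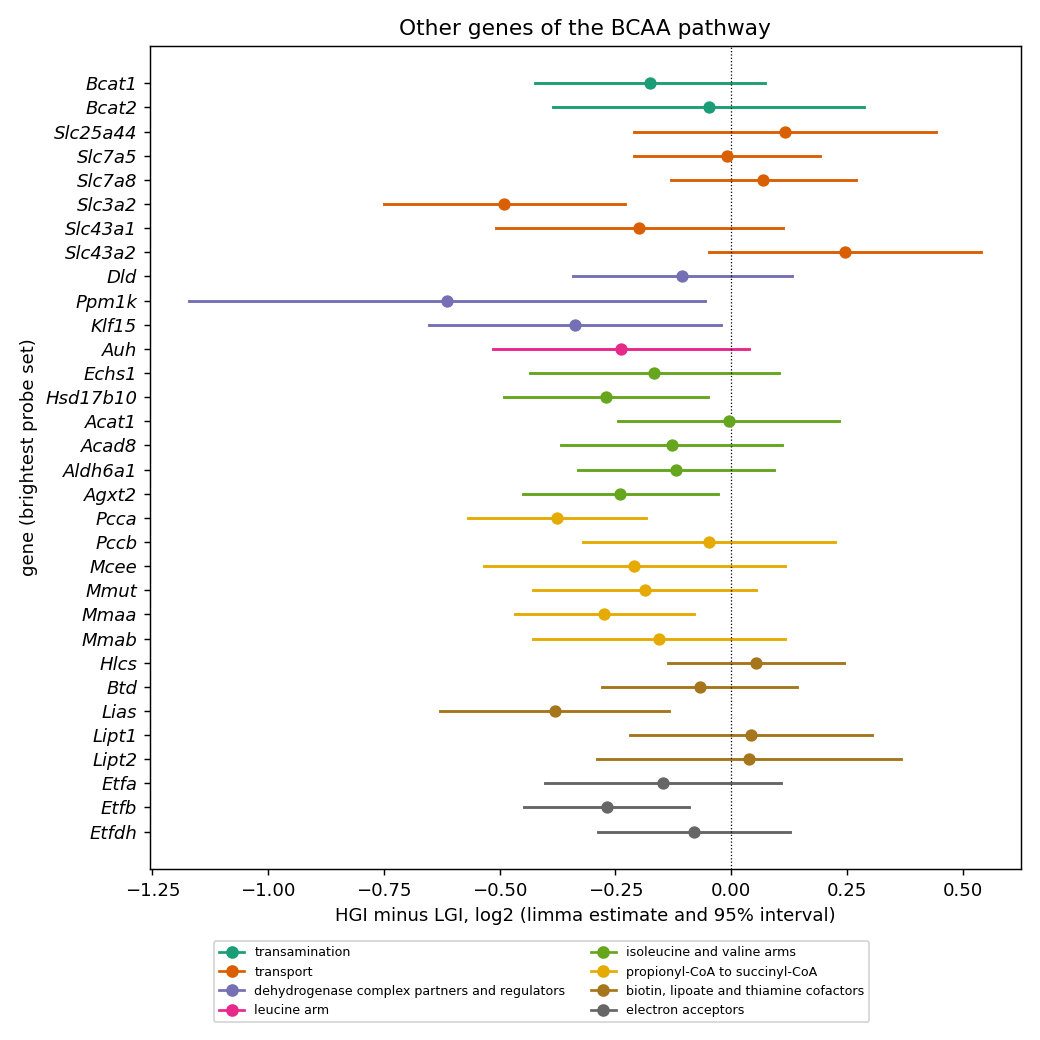
HGI minus LGI differences (log2) with 95% limma intervals for the 32 measured pathway genes outside the 10, coloured by role. Intervals lie wholly below 0 for 9 genes, among them Ppm1k, Slc3a2, Pcca and Lias, and for none wholly above 0.

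The genes with the pattern most like that of Ivd over the 10 livers were sought among 7151 named genes with a mean of at least 6, by Pearson correlation. They were Abat (r = 0.97), Sqor (r = 0.96), Aadat (r = 0.95), Pcca (r = 0.94) and Sntg2 (r = 0.93). After centring on diet means their r with Ivd lay between 0.79 and 0.89. Those most like Bckdk were Arl1 (r = 0.96), Dusp22 (r = 0.95), Atg12 (r = 0.95), Mrpl43 (r = 0.94) and Ift20 (r = 0.94), with r between 0.94 and 0.96 after centring. All share the same arrays, HGI 1 among them, and the correlations are descriptions.

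Over the whole array 29 probe sets passed in limma, 17 higher and 12 lower in HGI, and 13 higher and 4 lower after median centring. Hepatocyte markers (Alb, Apoa1, Ttr, Tat and Cps1) were bright in all livers, with a mean level of 13.80 to 13.94 in HGI and 13.73 to 14.01 in LGI. Of these 5, 3 had differences above 0 (Alb 0.003, Ttr 0.03 and Apoa1 0.11) and 0 passed. Lower in HGI were Tat at -0.26 (interval -0.52 to 0.01) and Cps1 at -0.19 (interval -0.37 to -0.01). All 6 Kupffer cell markers and all 5 liver endothelial markers had differences above 0, as did 7611 of the 18193 named genes, and 0 passed. Intervals lay wholly above 0 for Stab2 (0.76, interval 0.38 to 1.15), Vsig4 (0.46, interval 0.10 to 0.82) and Stab1 (0.25, interval 0.02 to 0.49), and included 0 for the rest. At an unadjusted limma p under 0.05, 559 of the 18193 named genes were higher in HGI. Among those with a mean of at least 6 the count was 273 of 7161. List means were 7.64 to 8.65 in HGI against 7.35 to 8.08 in LGI livers for Kupffer cells. For endothelial cells they were 6.23 to 7.05 in HGI against 5.996 to 6.36 in LGI livers. The 2 measured erythroid markers averaged 7.46 to 8.94 in HGI and 5.65 to 7.58 in LGI. Alas2 stood at 1.34 (interval 0.62 to 2.06, limma adjusted p = 0.262). Slc4a1 stood at 2.25 (interval 1.42 to 3.07, limma adjusted p = 0.0625), with the HGI livers wholly above the LGI livers. The part of any of these cell types in the lower BCAA transcripts was not tested. Skeletal muscle markers averaged 3.98 to 4.05 in HGI and 4.00 to 4.08 in LGI, near the array medians.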

How the data were processed

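Liver RNA of 10 mice was read on 10 Affymetrix arrays. The authors deposited log2 values per probe set. Per the submitters' processing notes they were made with RMA in R 2.6.1; RMA subtracts background, equalizes the arrays' distributions and summarises each set's probes. RMA draws arrays towards a common distribution, so differences are relative to the other genes, and it gives no read depth. The number of arrays limits the precision.

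The 64 control probe sets were left out and 45037 of 45101 tested, with no filter on dim signal. Symbols came from the platform annotation, checked through gene IDs in RefSeq (GRCm38.p6, 0 changed). 34945 probe sets had 1 symbol, 932 several and 9160 none. HGI was compared with LGI in limma 3.58.1 (R 4.3.3, lmFit and eBayes, no covariates), with Benjamini-Hochberg adjustment over all probe sets. The procedure was tested on simulated data with independent noise and effects larger than the member differences, so that test does not cover differences of their size. Labels number the mice, and p-values measure the spread between these mice.

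Members and lists were chosen with earlier results of these data known. Named were all members and, per role in the pathway list, genes with an unadjusted p under 0.05 plus the brightest gene, and the 5 genes most like Ivd, the member of lowest p, and most like Bckdk. Dld, Pccb, Bcat1, Etfa, Etfdh, Slc7a5 and Slc7a8 were named after their values were seen. Alternatives were 2 filters on dim probe sets, 2 normalizations, robust fitting with a variance trend, array weights, a replicate block, averaging a gene's probe sets, and leaving out arrays. Correlations used exact permutation within diets.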

Additional observations from a re-analysis of the deposited data

Results flagged for a closer look

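In 7 of 62 groups of 5 livers examined, 1 liver stood apart from the other 4 of its diet by Dixon's criterion, where chance gives about 1 in 20 such groups. Bckdk was 5.88 on HGI 1, against 6.26 to 6.40 in the other HGI livers. Acat1 was 10.98 on HGI 1, with the others between 11.46 and 11.56. Ppm1k was 9.55 on HGI 3, with the others between 8.09 and 8.45. In LGI livers, the dimmer Ivd probe set was 7.48 on LGI 1 (others 7.89 to 8.04), the dim Hibch probe set 5.26 on LGI 2 (others 4.90 to 4.94), Slc3a2 8.06 on LGI 4 (others 8.48 to 8.57) and Agxt2 7.84 on LGI 3 (others 7.62 to 7.67).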

How the results depend on the processing

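The median member difference lay between -0.39 and -0.28 over 19 alternatives, and 0 members passed in any but 1: without HGI 3, 1 probe set, the brighter of Ivd, passed, so leaving out single arrays gave 0 to 1 for probe sets and for genes. The 8 genes at an unadjusted p under 0.05 became 5 when each gene's probe sets were averaged, and the 9 other pathway genes at that level became 5 to 12 with single arrays left out (5 without HGI 1 or HGI 5). Over the whole array the 29 calls became 63 after quantile normalization again, 17 after median centring, 64 with array weights, 58 without HGI 1 and LGI 4, and 5 to 49 with single arrays left out (49 without HGI 3, 15 without HGI 4, 7 without HGI 5, and 5 each without LGI 2, LGI 3 or LGI 5). Bckdk minus Ppm1k ranged from 0.41 to 0.75 with single arrays left out. The Bckdha with Bckdhb correlation was 0.76 after quantile normalization again (adjusted p = 0.133) and 0.90 without HGI 1 and LGI 4 (adjusted p = 0.104), and Mccc1 with Mccc2 was 0.84 after median centring (adjusted p = 0.0351), 0.83 after quantile normalization again (adjusted p = 0.133), 0.79 without HGI 1 and LGI 4 (adjusted p = 0.169) and 0.34 with probe sets averaged (adjusted p = 0.391). Differences near 0 changed sign: Bckdk was 0.016 with array weights, -0.15 to 0.023 with single arrays left out and 0.11 without HGI 1 and LGI 4. Bcat2 was 0.048, -0.14 to 0.060 and 0.029 in the same order, and Slc25a44 -0.0024 to 0.19 with single arrays left out. Acat1 was 0.041 after quantile normalization again, 0.066 with array weights, 0.030 with all probe sets averaged, -0.040 to 0.10 with single arrays left out and 0.13 without HGI 1 and LGI 4. The cause of these changes was not tested. Mouse numbers are shared between diets, but same-numbered mice did not deviate together (r from -0.13 to 0.04), so they were not taken as pairs. With the replicate block 33 probe sets passed over the array and 0 members.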
